A study of Homo sapiens with 372 samples.

Results

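Among the 56 cells retained after 16 h of paclitaxel, the deposited annotation put 31 in a suppressed state, 23 in a control-like state and 2 in an amplification state. The 54 cells of the first and second of these states, out of 338 cells in the whole data set, are compared here, and the 2 amplification cells were left out. The states were assigned by the authors with a random forest (a classifier that lets many decision trees vote) from the expression values of the same cells. Every difference between the states is therefore a description of cells that were sorted by these values, and no test of it was made.

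The cells were of A2780, an established human ovarian endometrioid adenocarcinoma line. They were untreated or received paclitaxel (5 nM) for 16 or 48 h, celecoxib (75 µM) for 2 or 16 h, or both drugs at these doses for 16 h. Single cells were caught on a Fluidigm C1 chip, in which each cell has a numbered capture site, and full-length polyA-tailed RNA was copied by Smart-seq2 with 3 spike-in RNAs added to each well. Each of the 6 conditions was 1 sample, cells are not replicates, and the SD values below are spreads over cells. The 46 untreated cells were captured in a run of their own, so differences from them cannot be told apart from differences between runs.

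Paclitaxel stabilizes microtubules, the dynamic tubulin filaments that form the mitotic spindle. Cells that enter division with such a spindle are held by the spindle checkpoint, which keeps the anaphase-promoting complex inactive until every chromosome is attached. They may die, or leave mitosis without dividing, and often then stop in a G1-like phase. Because most sequencing protocols give only relative levels, a cell that holds less mRNA in total is seen as such only when spike-in RNA of constant amount is added.

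The suppressed cells held less mRNA than the control-like cells, with little overlap. Transcriptomic abundance, the sum of the spike-in normalized TPM (the share of transcripts given to a gene, corrected for its length) over 9664 genes, was set on the log2 scale with the median of the untreated cells at 0. In the 31 suppressed cells it had its lowest value at -1.91, its median at -1.33 and its highest value at -0.61 (SD 0.32). In the 23 control-like cells the corresponding values were -0.96, -0.46 and 0.24 (SD 0.29). The states overlapped only between -0.96 and -0.61, a range that held 2 suppressed and 9 control-like cells. The medians differed by -0.88, so that the control-like cells held 1.83 times the abundance of the suppressed cells. No suppressed cell (0 of 31) and 1 control-like cell lay above the untreated median, so the cells named control-like were themselves mostly below that median. The cells of both states lay within the range of the untreated cells, from -2.125 to 0.80. The lower quartile of the untreated cells was -0.315, above the medians of both states.

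Fewer genes were detected (E-value above 0) in the suppressed cells as well. Their number was 4817 in the lowest, 5840 in the median and 7087 in the highest suppressed cell, and 5416, 6490 and 7583 in the control-like cells. Across cells it followed the total, with Pearson's r of 0.83 over the suppressed and 0.87 over the control-like cells, both being measures of the same library. Of all gene values, 39.6% were 0 in the suppressed and 32.1% in the control-like cells. Read numbers per cell are not known here, so that a gene missing from a cell and a gene not caught at its depth cannot be told apart, and rescaling does not restore a value of 0.

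The states were unevenly spread over the chip. Of the 21 cells from capture sites 1 to 48, 5 were suppressed (23.8%, exact Clopper-Pearson 95% interval 8.22 to 47.2%, for counting error only), and of the 35 cells from sites 49 to 96, 26 were suppressed (74.3%, 56.7 to 87.5%). The gap in total was present within each set of sites. The states were assigned from spike-in normalized values, which keep the total, so such a gap is largely built in. The medians were -1.33 for suppressed and -0.52 for control-like cells at sites 1 to 48, and -1.32 and -0.44 at sites 49 to 96. The untreated cells of their own chip had medians of -0.03 and 0.05 at these sites. The part of the capture site in the state calls was not tested, and values within each set of sites are therefore given for the gene counts, the lists and the genes that moved most with the site.

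**Figure D1:**
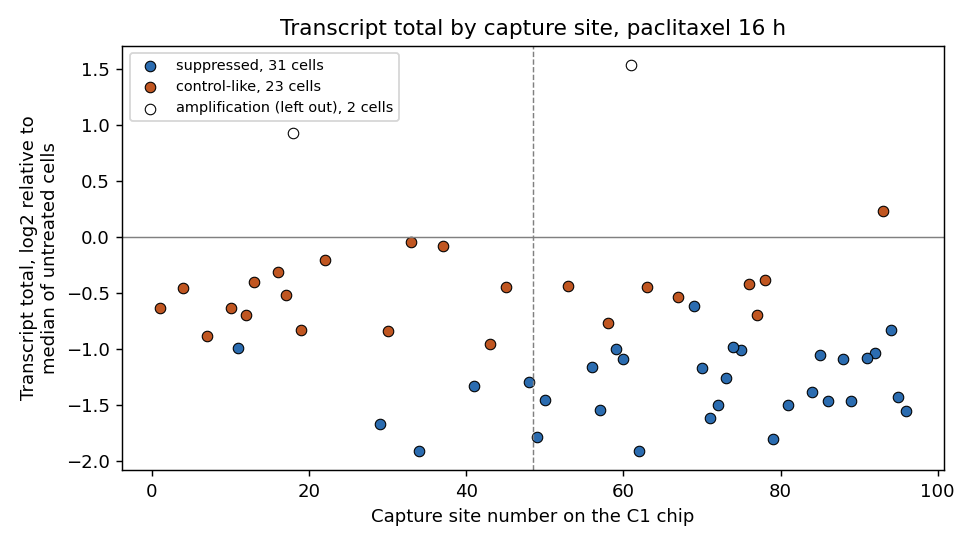
Log2 transcript total of each cell of the paclitaxel 16 h run (vertical axis, with the median of the untreated cells as the line at 0) against its capture site on the chip (horizontal axis), with the dashed line between sites 48 and 49; each point is a cell, coloured by state, and open points are the 2 amplification cells. Suppressed cells lie mostly to the right, and at both sets of sites their medians of -1.33 and -1.32 lie below the control-like medians of -0.52 and -0.44.

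Gene differences were taken on 2 scales. The deposited E-value is log2(N/10 + 1), where N is the spike-in normalized TPM, and keeps the difference in total. For the same-total scale, N was rescaled so that every cell had the same total, and E was recomputed. This takes out the common shift and shows which genes stood lower or higher relative to the rest of their cell. A gene was counted as lower or higher when its mean E differed between the states by more than log2 of 1.5 (0.585), among the 9070 genes that 30% or more of the cells of either state showed.

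On the deposited scale 3424 genes (37.8%) were lower and 8 genes (0.0882%) were higher in the suppressed cells, and the median difference of all genes was -0.43. At the same total 999 genes (11.0%) were lower and 143 (1.58%) higher, with a median of -0.10. All 999 were also lower on the deposited scale. Of the 143 genes higher at the same total, 8 were past the limit on the deposited scale too, and 16 had a negative deposited difference. The balance at the same total depended on how cells were averaged: with linear means in place of mean E, 1471 genes were lower and 1696 higher. Some genes named below as lower were then within the limit, such as SLC3A2 (log2 ratio -0.57), CDKN1A (-0.515) and PSMB10 (-0.34). Others, such as CDK1 (-1.62) and AURKB (-1.09), stayed past it. Around the limit itself the values ran on without a gap, from -0.5855 for the last gene counted as lower at the same total to -0.585 for the next gene.

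Of the genes counted as lower at the same total, 898 of 999 (89.9%) were negative at both sets of capture sites, against 38.4% of all genes, and 459 were past the limit at both. Of the 143 higher genes, 127 (88.8%) were positive at both, against 16.7% of all genes, and 50 were past the limit at both. The genes were chosen on these same cells, so that a like sign is largely built in, and these counts do not check the differences. Read alone, with its 5 suppressed cells, the set of sites 1 to 48 put 41.0% of all genes lower and 2.56% higher on the deposited scale, and 20.9% lower and 10.8% higher when totals were equal. Sites 49 to 96, with 8 control-like cells, put 44.7% lower and 0.639% higher, and 17.9% lower and 3.64% higher when totals were equal.

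**Figure D2:**
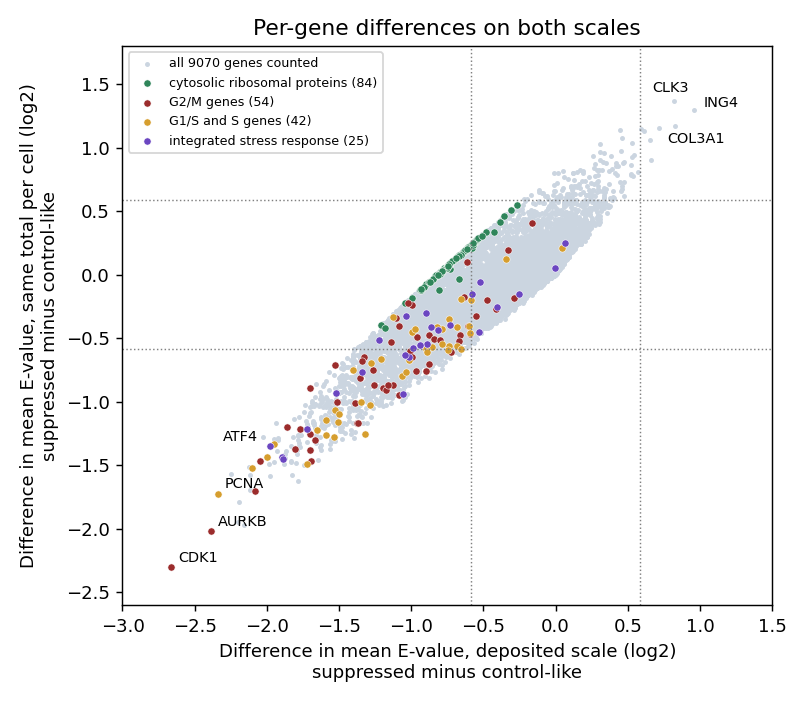
Difference in mean E-value of each of the 9070 genes, suppressed minus control-like, with the deposited scale on the horizontal axis (log2) and the same total per cell on the vertical axis (log2), with 4 gene lists in colour and dotted lines at the 1.5-fold limit. CDK1 and AURKB lie lowest on both axes, the ribosomal protein genes lie along the upper edge with no member past the same-total limit, and CLK3, ING4 and COL3A1 lie at the upper right.

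Of the 20 gene lists, the G2/M genes had the lowest median at the same total. Of 54 G2/M genes, 48 were lower on the deposited scale (median -1.11) and 33 were lower and 0 higher at the same total (median -0.71). Of all genes, 37.8% were lower as deposited, and 11.0% were lower and 1.58% higher at the same total. Each later list is to be set against these shares. CDK1, the cyclin-dependent kinase that drives entry into mitosis, had the largest negative difference of all genes at the same total, -2.30 (-2.66 on the deposited scale). Its same-total E-values had their lowest, median and highest at 0.00, 0.25 and 6.60 in the suppressed cells, at 0.00, 4.86 and 6.91 in the control-like cells and at 0.00, 3.66 and 6.87 in the untreated cells. The states overlapped over nearly the whole range, but 27 of 31 suppressed cells lay below the control-like median, and CDK1 was detected in 20 of 31 suppressed and 20 of 23 control-like cells. The difference was thus made by many suppressed cells at or near 0, beside a few as high as the control-like cells.

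AURKB, the kinase of the chromosomal passenger complex, differed by -2.02 at the same total. It was detected in 15 of 31 suppressed and 20 of 23 control-like cells, with medians of 0.00 and 4.41 and highest values of 7.10 and 6.52. SPC25, a subunit of the NDC80 complex that ties kinetochores to microtubules, was detected in 10 of 31 and 20 of 23 cells and differed by -1.97. Its mean was 0.57 ± 1.25 (SD, n = 31 cells) in the suppressed and 2.53 ± 1.69 (SD, n = 23 cells) in the control-like state. For all of CDK1, AURKB and SPC25 the share of cells with the transcript was lower in the suppressed state. The highest suppressed cells were close to or above the highest control-like cells for CDK1 and AURKB, but not for SPC25 (4.06 and 5.24).

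CDK1, AURKB and SPC25 are shown by the 250 bases before their start sites, since genes of the late cell cycle are known to share promoter elements there. In the sequences CCAAT, the box bound by NF-Y, and TTTGAA or TTCGAA, the letters of the cell cycle genes homology region, are in capitals on either strand (ATTGG and TTCAAA on the reverse). They are from RefSeq on GRCh38.p14, written 5′ to 3′ on the strand of the gene. The windows are chr10:60778081-60778330 on the plus strand for CDK1, chr17:8210226-8210475 on the minus strand for AURKB and chr2:168890431-168890680 on the minus strand for SPC25, whose last capitals begin a match that runs past the start site.
CDK1: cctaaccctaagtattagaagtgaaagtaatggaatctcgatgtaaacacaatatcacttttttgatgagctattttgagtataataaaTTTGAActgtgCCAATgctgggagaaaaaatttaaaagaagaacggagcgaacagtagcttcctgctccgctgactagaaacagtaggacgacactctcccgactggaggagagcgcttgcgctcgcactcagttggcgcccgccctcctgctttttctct
AURKB: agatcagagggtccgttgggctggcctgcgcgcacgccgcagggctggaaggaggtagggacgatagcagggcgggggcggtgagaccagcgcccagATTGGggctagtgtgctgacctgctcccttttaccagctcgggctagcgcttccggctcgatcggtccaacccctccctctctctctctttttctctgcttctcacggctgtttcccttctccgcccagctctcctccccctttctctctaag
SPC25: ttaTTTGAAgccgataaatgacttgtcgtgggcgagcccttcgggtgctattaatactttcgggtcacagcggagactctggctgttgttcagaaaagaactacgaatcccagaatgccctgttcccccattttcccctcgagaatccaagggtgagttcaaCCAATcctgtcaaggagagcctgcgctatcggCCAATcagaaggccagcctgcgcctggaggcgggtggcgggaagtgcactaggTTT

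Matches were counted from 250 bases before to 50 bases after each start. Of the 54 G2/M genes, 45 had a RefSeq window, of which 68.9% held CCAAT, 73.3% TTTGAA or TTCGAA, and 60.0% both. Of all 27305 windows the shares were 35.7%, 16.6% and 6.58%, and of the 7520 windows of genes counted here 38.4%, 11.2% and 5.12%. The 846 windows of genes lower at the same total held both in 8.63%, and the 122 windows of higher genes in 5.74%. A match is only a description of the letters, and many of the G2/M genes are among the lower genes. CCAAT was not particular to the G2/M list: only 33 of the 42 G1/S and S genes had a window, too few of the list to take its share as the list's, but 23 of the 33 held CCAAT and 3 held TTTGAA or TTCGAA.

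Many genes in the list of the spindle checkpoint and the anaphase-promoting complex, the machinery engaged when paclitaxel blocks the spindle, were also lower. BUB1, TTK, CDC20 and UBE2C of this list are in the G2/M list too, so the lists are not separate. Of 26 members counted, 20 were lower on the deposited scale, against 37.8% of all genes. At the same total 12 were lower and 0 higher (median -0.55), against 11.0% and 1.58% of all genes. BUB3, a checkpoint protein at kinetochores, differed by -1.57 at the same total, with medians of 4.72 and 5.78, and 30 of 31 suppressed cells lay below the control-like median. The list medians were -0.36 at sites 1 to 48 and -0.59 at sites 49 to 96. UBE2C, the ubiquitin-conjugating enzyme of the complex, differed by -1.46 and ZWINT, a kinetochore scaffold protein, by -1.35. Of the subunits of the complex itself, only ANAPC10 (-0.80), CDC23 (-0.945) and CDC27 (-1.12) were past the limit. ANAPC1 (0.09), ANAPC11 (0.30) and ANAPC15 (0.095) stood above 0.

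Genes of G1/S and S phase were lower in the same cells. Of 42 counted, 40 were lower on the deposited scale, against 37.8% of all genes. At the same total 24 were lower and 0 higher (median -0.64), against 11.0% and 1.58% of all genes. PCNA, the sliding clamp of the replicative DNA polymerases, had same-total E-values of 0.00, 4.32 and 7.20 (lowest, median and highest) in the suppressed and 3.50, 5.78 and 6.87 in the control-like cells, and a difference of -1.72. TYMS, which makes thymidylate, differed by -1.52 and PRIM1, the catalytic primase subunit, by -1.49. PCNA and TYMS were detected in every control-like cell, while PRIM1 was detected in 9 of 31 suppressed and 18 of 23 control-like cells.

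Averaged over the list in each cell, the S genes had a same-total mean E of 0.44, 1.51 and 2.68 (lowest, median and highest) in the suppressed cells against 1.00, 2.43 and 3.14 in the control-like cells, and 27 of 31 suppressed cells lay below the control-like median. The G2/M means were 0.85, 1.85 and 4.00 in the suppressed and 1.08, 2.54 and 4.08 in the control-like cells, with 25 of 31 below the control-like median. The highest suppressed cells thus carried G2/M levels close to those of the highest control-like cells. The control-like cells were near the untreated cells, whose medians were 2.38 for S and 2.66 for G2/M genes. Within the suppressed cells the means moved with the log2 total (Pearson's r of 0.46 for S and 0.36 for G2/M over 31 cells of shared libraries), and the part of depth in these differences was not tested.

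Both lists kept their sign at each set of sites. The same-total medians were -0.92 for S and -0.94 for G2/M genes at sites 1 to 48, and -0.65 and -0.86 at sites 49 to 96. CDK1 differed by -3.78 at sites 1 to 48 and by -2.45 at sites 49 to 96, and AURKB by -3.18 and -1.70. PRIM1 differed by -0.10 at sites 1 to 48 and by -2.37 at sites 49 to 96, so that its difference came from the latter. In the 2 suppressed and 9 control-like cells that shared a range of totals, CDK1 was at 0.11 and BUB3 at 0.16, which rests on 2 suppressed cells.

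**Figure D3:**
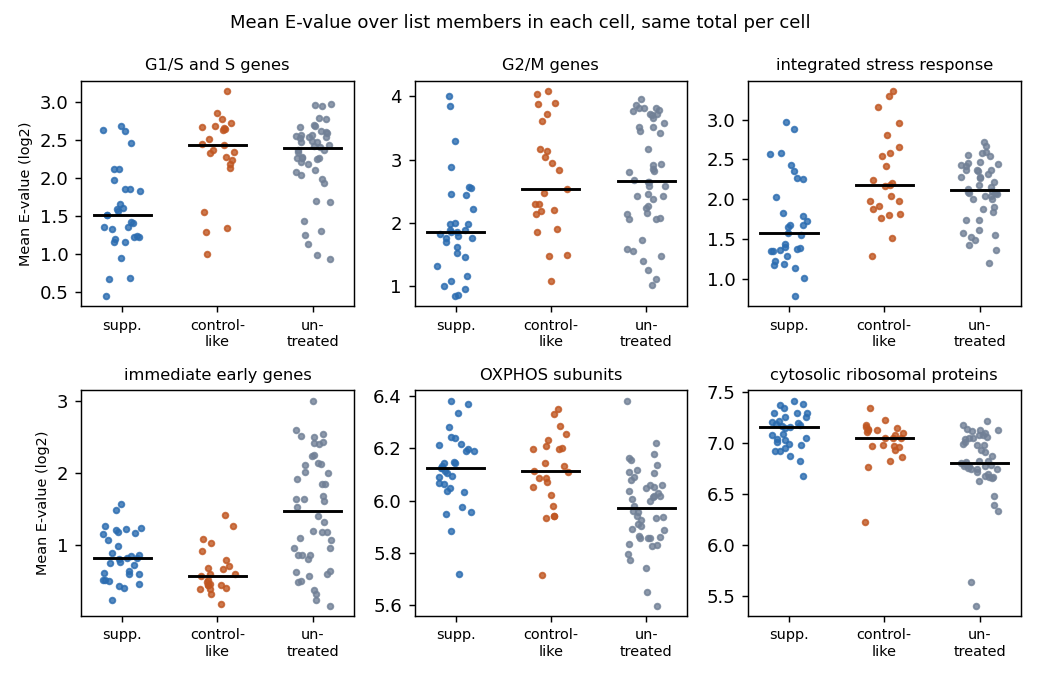
Mean same-total E-value (vertical, log2) over the members of each of 6 gene lists in every suppressed, control-like and untreated cell; points are cells and bars are medians. The S and G2/M medians are 1.51 and 1.85 in the suppressed and 2.43 and 2.54 in the control-like cells, while the ribosomal protein medians are 7.15 and 7.05.

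Genes of the integrated stress response, the program by which cells under amino acid or protein-folding stress translate ATF4 and induce its targets, were lower as well. Of 25 counted, 18 were lower on the deposited scale (median -0.94), against 37.8% of all genes. At the same total 9 were lower and 0 higher (median -0.51), against 11.0% and 1.58% of all genes. ATF4 itself had same-total E-values of 0.00, 3.02 and 5.74 in the suppressed, 2.86, 4.67 and 6.23 in the control-like and 1.75, 4.12 and 5.96 in the untreated cells, and differed by -1.35 between the states. Its targets ASNS, which makes asparagine, and SLC3A2, the heavy chain of amino acid transporters, differed by -1.44 and -1.45. For ASNS the suppressed median (2.66) equalled the untreated median at this rounding, and the control-like median (3.77) was the higher. PSAT1 and PHGDH, enzymes of serine synthesis, were at -1.22 and -0.76 and MTHFD2, of mitochondrial folate metabolism, at -0.93. The list median was -0.41 at sites 1 to 48 and -0.48 at sites 49 to 96. The list mean per cell was 1.57 (median) in the suppressed, 2.18 in the control-like and 2.12 in the untreated cells.

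Among p53 targets 9 of 22 were lower on the deposited scale, a share near the 37.8% of all genes (median -0.43, close to that of all genes). At the same total 5 were lower, against 11.0% of all genes, and 0 higher. The list median there was -0.28 (-0.41 at sites 1 to 48 and -0.15 at sites 49 to 96). CDKN1A (p21), the inhibitor of cyclin-dependent kinases, was detected in 9 of 31 suppressed, 14 of 23 control-like and 11 of 46 untreated cells and differed by -0.85 at the same total. GDF15, a stress cytokine, was detected in 8, 11 and 8 of these cells and differed by -0.61. CDKN1A and GDF15, with IFITM1 and IFITM2, were taken from the genes that the study had named as raised by paclitaxel in this data set, and SNCG was added with earlier results known, so that their levels are not independent of the choice. IFITM1, IFITM2 and SNCG were at 0.12, 0.07 and 0.13 at the same total, where SNCG had medians of 6.30 in the suppressed and 6.22 in the control-like cells. IFITM1 and IFITM2 are close paralogs and may share reads. The median of the 5 genes was 0.07 over all cells but -0.58 at sites 1 to 48 and -0.43 at sites 49 to 96. SNCG was at -0.58 and 0.98 and IFITM1 at 0.96 and -0.43 at these sites, so that neither held its sign.

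Sterol genes were lower in 11 of 20 cases on the deposited scale, against 37.8% of all genes. At the same total 4 were lower, against 11.0% of all genes, led by EBP, a sterol isomerase, at -1.49. Of 18 heat shock protein genes, 14 were lower on the deposited scale, against 37.8% of all genes. With equal totals 1 was lower, a smaller share than the 11.0% of all genes. The gene lower with equal totals was HSPA8, the constitutive Hsp70 chaperone, at -1.17. Its medians were 5.60 in the suppressed, 6.66 in the control-like and 7.49 in the untreated cells. The 8 genes of the CCT chaperonin, which folds tubulin and actin, were all lower on the deposited scale (median -1.09), against 37.8% of all genes. None was past the limit at the same total (0 of 8, median -0.30), against 11.0% of all genes that were lower. At sites 1 to 48 and 49 to 96 the medians were -0.18 and -0.45 for the sterol genes, -0.46 and -0.21 for the heat shock proteins and -0.25 and -0.24 for CCT, and HSPA8 was at -2.07 and -0.93.

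The tubulins, whose polymer paclitaxel binds, lay on both sides of 0 at the same total. Of 13 counted, 8 were lower on the deposited scale, against 37.8% of all genes. With equal totals 2 were lower and 1 higher (median -0.21), against 11.0% and 1.58% of all genes. This median depended on the capture site, at -0.75 for sites 1 to 48 with their 5 suppressed cells and -0.14 for sites 49 to 96. TUBB, a main beta-tubulin, had E-values of 3.96, 5.13 and 6.01 in the suppressed and 3.72, 5.19 and 6.03 in the control-like cells at the same total, a difference of -0.02 against -0.81 on the deposited scale. The alpha-tubulins TUBA1B and TUBA1C were at -0.21 and -0.48, and TUBB4B and TUBB6 at -0.34 and -0.07. TUBA1A was the gene that stood higher, by 0.80 (1.11 at sites 1 to 48 and 0.94 at sites 49 to 96), with medians of 3.74 and 3.30 and a wide range in both states. TUBB2A and the epsilon-tubulin TUBE1 were lower, by -0.85 and -0.75, and reads of TUBB2A may be shared with its near copy TUBB2B.

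In the ribosomal and oxidative phosphorylation lists most genes were lower on the deposited scale, and nearly none was past the limit once totals were equal. Of 84 cytosolic ribosomal protein genes, 66 were lower on the deposited scale (median -0.69), against 37.8% of all genes. At the same total 0 were lower and 0 higher (median 0.12), against 11.0% and 1.58% of all genes. RPL12, a protein of the large subunit, was at 5.73, 6.65 and 7.70 in the suppressed and 5.01, 6.18 and 6.94 in the control-like cells, a difference of 0.55. Of 77 subunits of oxidative phosphorylation, 68 were lower on the deposited scale, against 37.8% of all genes. At the same total 1, SDHD of complex II, was lower (-0.72), against 11.0% of all genes, and the list median was 0.02. The list mean per cell was 6.13 in the suppressed and 6.11 in the control-like cells at the median. GAPDH, a glycolytic enzyme, was at medians of 9.00 and 8.94, below the 9.78 of the untreated cells. The medians at sites 1 to 48 and 49 to 96 were 0.04 and 0.12 for the ribosomal proteins and 0.09 and 0.04 for oxidative phosphorylation.

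Of 76 mitochondrial ribosomal protein genes, 65 were lower on the deposited scale, against 37.8% of all genes here and for the lists that follow. At the same total 11 were lower, a share near the 11.0% of all genes, and 0 higher (median -0.21, and -0.14 and -0.19 at the sets of sites). MRPS2 was at -0.93. Of 35 proteasome genes, 33 were lower on the deposited scale and 3 with equal totals (median -0.27, and -0.29 and -0.12 at the sets of sites), likewise no larger a share than that of all genes. PSMB10, a catalytic subunit of the immunoproteasome, was at -0.96. Among 33 SR proteins and hnRNPs, which bind and splice pre-mRNA, 22 were lower on the deposited scale. With equal totals 2 were lower, a smaller share than the 11.0% of all genes (medians of -0.14 and -0.07 at the sets of sites). They were HNRNPF (-1.04) and HNRNPH1 (-0.73), the latter at -1.59 for sites 1 to 48 and -0.21 for sites 49 to 96. For the 12 subunits of RNA polymerase II, 10 were lower on the deposited scale and 1 with equal totals, again a smaller share than that of all genes. POLR2C was the lowest at -0.66. The list median was -0.34 at sites 1 to 48 and -0.02 at sites 49 to 96. POLR2B stood at 0.57 and no subunit was past the limit upwards.

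**Figure D4:**
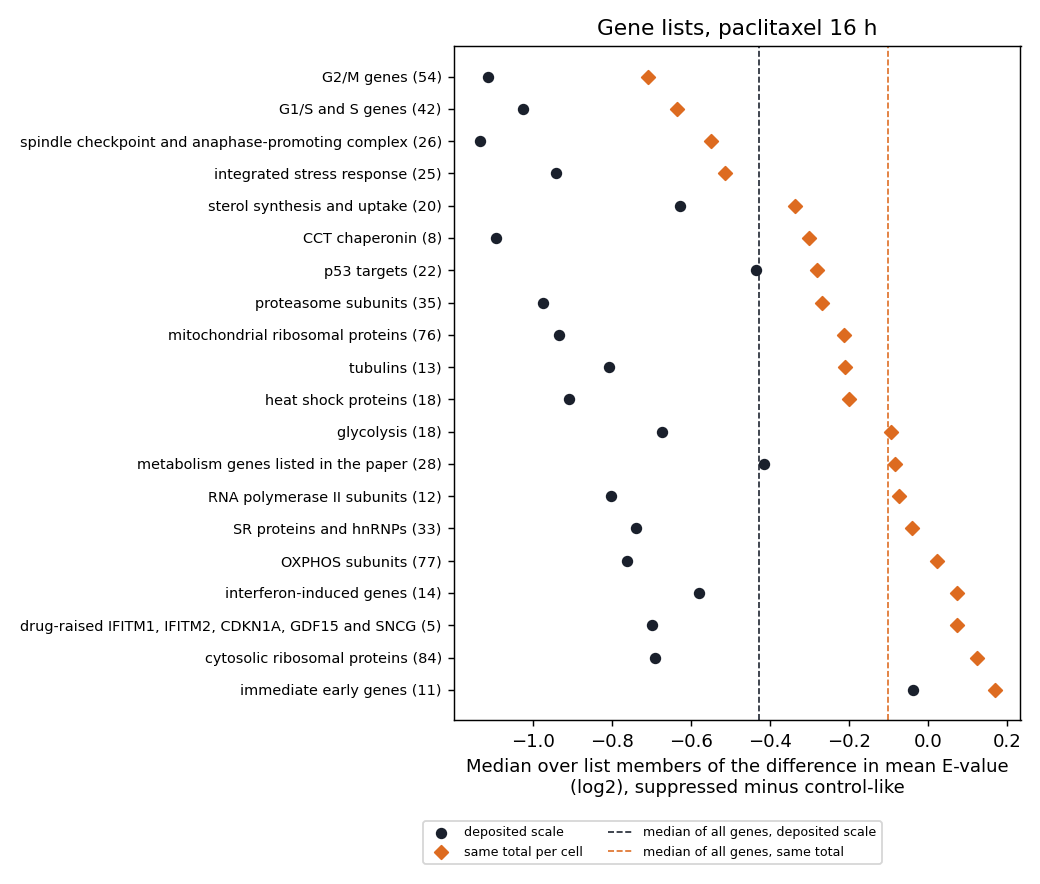
Median over each gene list of the difference in mean E-value, suppressed minus control-like, as deposited (circles) and with equal totals per cell (diamonds), in log2, with the number of members counted in brackets and dashed lines at the medians of all genes (-0.43 and -0.10). The G2/M, S, checkpoint and stress response lists lie lowest at the same total, from -0.71 to -0.51.

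Of the 18 glycolysis genes, 11 were lower on the deposited scale, against 37.8% of all genes. With equal totals 0 were lower and 1, the glucose transporter SLC2A3, was higher (0.73), against 11.0% and 1.58% of all genes. The list median with equal totals was -0.09 (0.02 at sites 1 to 48 and -0.12 at sites 49 to 96). Of 14 interferon-induced genes, 7 were lower on the deposited scale, against 37.8% of all genes. At the same total 0 were past the limit (median 0.07, and 0.28 and -0.17 at the sets of sites). A set of 28 metabolism genes was chosen by the study from genes raised in the control-like cells of the 48 h run. Of these, 10 were lower on the deposited scale, a share near the 37.8% of all genes. Their same-total medians were 0.07 at sites 1 to 48 and -0.085 at sites 49 to 96. At the same total 3 were lower and 3 higher, against 11.0% and 1.58% of all genes. The higher ones were MSRB2, a methionine sulfoxide reductase (1.08), ALDH1A1, an aldehyde dehydrogenase (1.04), and CCS, the copper chaperone of superoxide dismutase (0.71). ALDH1A1 was detected in 21 of 31 suppressed, 12 of 23 control-like and 19 of 46 untreated cells.

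Immediate early genes, which respond within minutes to growth factors and stress, had 0 of 11 members past the limit between the states on either scale (medians -0.04 as deposited and 0.17 with equal totals, and -0.01 and 0.35 for the latter at the sets of sites). Both states lay below the untreated cells, with a same-total list median of -0.45 for the suppressed and -0.80 for the control-like cells. FOS, a subunit of AP-1, was detected in 14 of 31 suppressed, 10 of 23 control-like and 37 of 46 untreated cells, with medians of 0.00, 0.00 and 4.56.

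The genes that stood highest in the suppressed cells at the same total were weakly expressed and of mixed function. CLK3, a kinase that phosphorylates SR proteins, was the highest at 1.37. Its E-values were 0.00, 3.06 and 5.08 in the suppressed, 0.00, 0.00 and 3.86 in the control-like and 0.00, 2.51 and 4.77 in the untreated cells, so that the control-like cells were the ones that stood apart. It was detected in 25 of 31 suppressed, 11 of 23 control-like and 39 of 46 untreated cells. ING4, a reader of histone H3 methylation, was detected in 16 of 31, 5 of 23 and 13 of 46 cells and differed by 1.295, and HSD11B1L by 1.17 (18 of 31 and 6 of 23).

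COL3A1, a fibrillar collagen, differed by 1.15, with medians of 1.81 in the suppressed, 0.22 in the control-like and 1.76 in the untreated cells. HIST2H2AA3, a histone H2A gene with a near-identical copy that may share its reads, differed by 1.14, WDR60, of the dynein-2 motor of cilia, also by 1.14, and SAT2 by 1.13. Outside these groups, the lowest genes were MPV17L2, a mitochondrial ribosome assembly factor (-1.95), HPRT1, of purine salvage (-1.79), G2E3, a ubiquitin ligase that is also in the G2/M list (-1.70), and PPIL1, a cyclophilin of the spliceosome (-1.69).

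**Figure D5:**
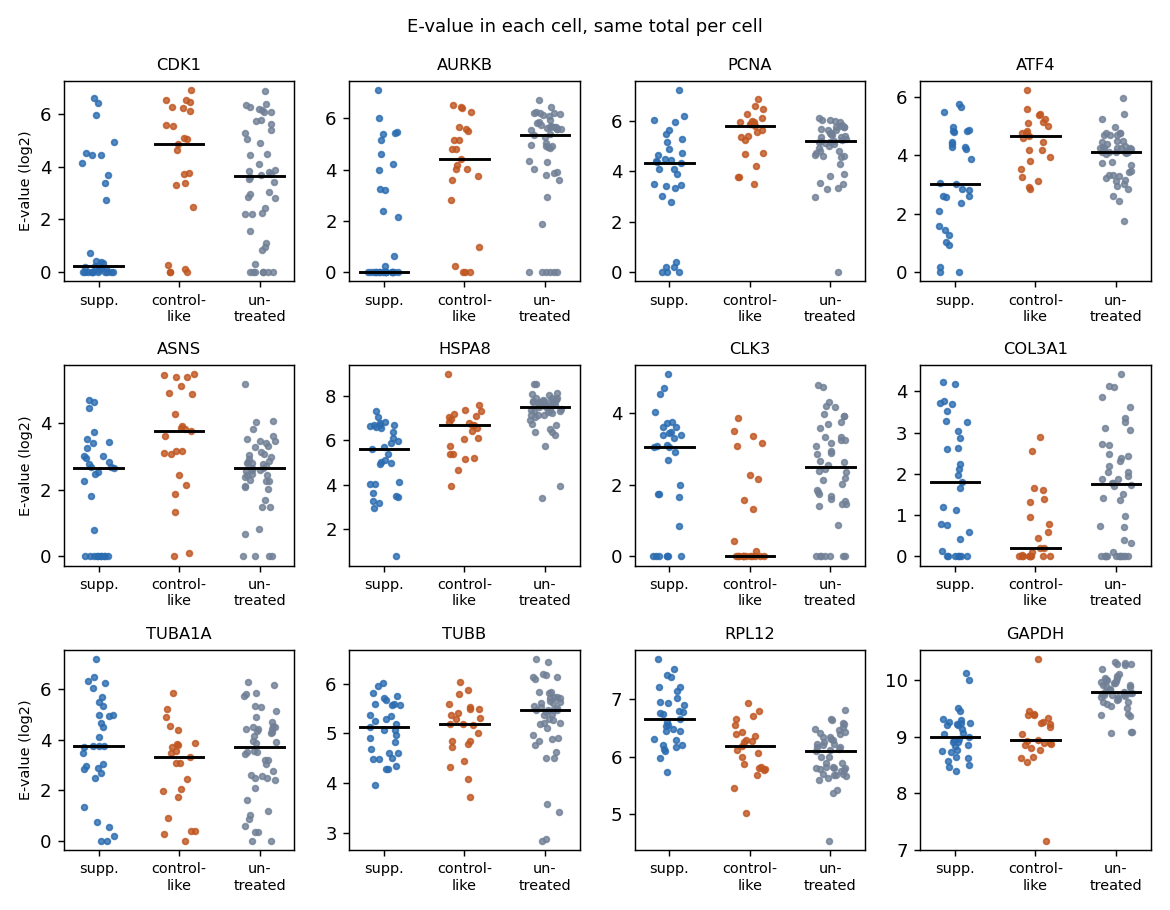
Same-total E-value (vertical, log2) of 12 genes in every suppressed, control-like and untreated cell; points are cells and bars are medians. CDK1 and AURKB have many suppressed cells at or near 0 beside a few at the control-like level, CLK3 is at 0 in most control-like cells, and TUBB and GAPDH are level between the states.

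Few cell type markers were among the genes given, so the line could be checked against them only in part. Of 8 epithelial and A2780 markers, 2 were given: VIM, detected in 21 of 31 suppressed and 13 of 23 control-like cells, and KRT18, in 5 and 7. Of 5 fibroblast markers 3 were given, COL3A1 as above and COL1A2 and LUM in 3 cells each of either state. Of 5 leukocyte markers only LYZ was given, detected in 16 of 31 and 10 of 23 cells. Its level was near 0, with highest deposited E-values of 0.26 in the suppressed and 0.38 in the control-like cells. Of the endothelial and erythroid markers, 0 of 3 and 0 of 3 were given. The other markers were not analysed here.

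The same states were present in other runs, where the same forest had named them. At 48 h of paclitaxel 25 cells were suppressed and 28 control-like, with median log2 totals of -1.06 and -0.34, and at 2 h of celecoxib 33 and 26, with -0.995 and -0.38. The runs share no cells, but they share the classifier. On the deposited scale 36.7% of the genes counted were lower and 0.265% higher at 48 h, and 31.8% and 0.142% with celecoxib. With equal totals 9.36% were lower and 2.11% higher at 48 h, and 8.45% and 1.26% with celecoxib. The G2/M list median at the same total was -0.71 at 16 h, -0.37 at 48 h and -0.53 with celecoxib, and the S list median -0.64, -0.51 and -0.58. The integrated stress response list was at -0.51, -0.57 and -0.31.

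Single genes differed more between runs. CDK1 was at -2.30, -2.07 and -1.26 in this order, PCNA at -1.72, -1.09 and -1.12, and AURKB at -2.02, -0.43 and -0.76. Of the 999 genes lower at 16 h, 995 were counted at 48 h, and 77.5% of them had a negative difference there, against 61.2% of all genes counted in both runs. Of the 143 higher genes 140 were counted, and 56.4% had a positive difference against 38.8% of all genes. Of the 8 highest genes at 16 h, only HIST2H2AA3 (0.94) was past the limit at 48 h, and only COL3A1 (0.86) with celecoxib. CLK3 was at -0.55 at 48 h and 0.34 with celecoxib, ING4 at 0.18 and -0.30, and SAT2 at 0.28 and 0.11. With celecoxib 81.1% of the lower genes were negative, against 63.0% of all genes, and 54.5% of the higher genes positive, against 37.0%.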

How the data were processed

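Smart-seq2 libraries of single A2780 cells were measured, 1 library per cell. The authors trimmed reads with Trim Galore, aligned them with Bowtie2 to hg38 transcripts (GENCODE version 28) joined with 3 spike-in sequences, took TPM from RSEM 1.3.0, divided by the highest spike-in RNA, and removed cells with poorly detected housekeeping genes. The deposited log2 values, E = log2(N/10 + 1), cover 338 cells and 9664 genes. They hold no counts, so depth is unknown and no doublet caller was run. Of 58 cells in the labels 56 were retained.

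N was recovered from E and rescaled to the median total of all cells (986662 normalized TPM) for the same-total scale. Because there is 1 capture run per condition, no test, p-value or SE was computed. Members and gene lists were chosen with earlier results of these data known, and the S and G2/M lists are those of Seurat. Genes named are the 8 lowest and 8 highest at the same total, the 4 lowest and 4 highest on the deposited scale, the 3 largest differences of each of 20 lists, 5 drug-raised genes (4 named by the study, and SNCG), the 5 most abundant genes and the alpha- and beta-tubulins. PSAT1, PHGDH and CCS were named after their values were seen, as were ANAPC1, ANAPC10, ANAPC11, ANAPC15, CDC23 and CDC27. Steps were tested on simulated data. Alternatives were means of N, a pseudocount lowered from 10 to 1 normalized TPM, detection limits of none or 50%, other totals, index sets, cells of shared totals and states recomputed with a forest of 200 trees. Capture sites were added after seeing the data. The forest used randomForest 4.7.1.2 in R 4.3.3. Other steps used pandas 2.3.3, numpy 2.4.6 and scipy 1.17.1 in Python 3.11.15, with matplotlib 3.10.9 for plots.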

Additional observations from a re-analysis of the deposited data

Results flagged for a closer look

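The 2 amplification cells of the 16 h run, left out of the comparison, had log2 totals of 1.53 (capture site 61) and 0.92 (capture site 18), both above the highest untreated cell at 0.80. They were 3.57% of the run (exact Clopper-Pearson 95% interval 0.435 to 12.3%), and no retained well of the run was noted as holding other than 1 cell.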

How the results depend on the processing

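The difference in median log2 total (-0.88) lay between -0.95 and -0.78 under every alternative tried. The counts of genes moved more. Of genes lower and higher on the deposited scale (3424 and 8), linear means gave 5988 and 363, a pseudocount of 1 gave 5742 and 127, and the 11 cells with shared totals gave 1473 and 2462. The higher count was 77 and 42 in the lower and upper library indices, and 232 and 58 at capture sites 1 to 48 and 49 to 96. Of genes lower and higher at the same total (999 and 143), a pseudocount of 1 gave 3173 and 539, the cells with shared totals 1572 and 2459, the lower indices 1517 and 508, sites 1 to 48 1895 and 981, and sites 49 to 96 1628 and 330. The higher count was 1696 with linear means and 368 in the upper indices. The cause of these shifts was not tested, and the smaller sets hold fewer cells. For 37 gene and list values 370 alternatives were run, and a change of sign was counted only where the main value was past the limit. Of these, 5 changed sign at the same total, all in the cells with shared totals: CDK1 to 0.11, PPIL1 to 0.042, BUB3 to 0.16, ING4 to -0.29 and COL3A1 to -0.43. Values within the limit changed sign too and were not counted. Among them were the median of the drug-raised genes (0.07, and -0.58 and -0.43 at the sets of sites) and that of the interferon-induced genes (0.07, and -0.17 at sites 49 to 96). With states recomputed, 53 of 56 cells kept theirs, 28 of 31 suppressed and 23 of 23 control-like, and 6 cells lay within 0.1 of the limit.

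No paired analysis was possible because each condition is 1 sample and no replicate number is shared. The missing read counts, the values of 0 and the 5 suppressed cells at capture sites 1 to 48 limit how small a difference can be read.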

Other observations

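Of the other runs in which both states were common, an uneven spread of suppressed cells over the chip was clear after 2 h of celecoxib. At 48 h of paclitaxel the shares differed in the same direction, but each interval held the share of the other set of sites. At 2 h of celecoxib 31.0% of the cells from capture sites 1 to 48 were suppressed (9 of 29, exact Clopper-Pearson 95% interval 15.3 to 50.8%) and 70.6% from sites 49 to 96 (24 of 34, 52.5 to 84.9%). At 48 h of paclitaxel the shares were 40.9% (9 of 22, 20.7 to 63.6%) and 51.6% (16 of 31, 33.1 to 69.8%). The log2 totals of all cells had medians of -0.64 and -1.08 at these sites in the 16 h paclitaxel run and of -0.62 and -0.82 in the 48 h run. For celecoxib the medians were -0.40 and -0.93 after 2 h, and -1.58 and -1.29 after 16 h, where the order was the opposite.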
